A study of Oryza sativa with 12 samples.

Results

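The transcripts described here were below wild type in osmads1 rice panicles of 2 mm and above it in panicles of 5-7 mm. Of 57194 probe sets on the array, 98 met the rule, which is 0.171%. Members were chosen by group means and by the order of arrays: a probe set entered when the osmads1 mean minus the wild-type mean of the deposited log2 values was -0.8 or less at 2 mm and 0.8 or more at 5-7 mm. In addition, all 3 osmads1 arrays had to lie below all 3 wild-type arrays at 2 mm and above them at 5-7 mm. The 2 mm condition alone was met by 468 probe sets (0.818%) and the 5-7 mm condition by 1406 (2.46%). The mirror pattern, higher at 2 mm and lower at 5-7 mm, was met by 275 probe sets, while 56 were lower and 57 higher at both lengths. Arrays did not overlap in these directions at both lengths for 5.75% of all probe sets. Because these values chose the members, their differences between genotypes and between lengths are given as a description, without a test.

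Panicles of paddy-grown rice (Oryza sativa) were profiled on Affymetrix arrays in 4 groups of 3 arrays, which are osmads1 at 2 mm, Wild Type at 2 mm, osmads1 at 5-7 mm and Wild Type at 5-7 mm. The labels place the shorter panicles in early and the longer ones in late flower development, and give no treatment, allele, genetic background or number of pooled plants. The replicates are biological repeats, according to the study's design text. Panicle RNA comes from many cell types, and fewer cells of a type and less RNA per cell cannot be told apart.

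OsMADS1 belongs to the SEPALLATA type of MADS-box transcription factors and acts in the identity of the grass floret meristem and of its organs. A panicle at these lengths is a population of florets that are still forming organs, with dividing cells. Dividing cells copy their DNA once a cycle: origins of replication are marked by the origin recognition complex, the MCM helicase is loaded on them, and polymerases with their clamp then copy both strands. DNA methyltransferases restore methylation on the new strands.

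The OsMADS1 probe set, which is not a member, read 5.25, 4.27 and 5.04 in osmads1 and 10.57, 10.93 and 10.90 in wild type at 2 mm. At 5-7 mm it read 4.96, 3.85 and 3.49 in osmads1 and 11.61, 11.51 and 11.48 in wild type. The 6 osmads1 arrays thus lay far below the 6 wild-type arrays. Of 14 panicle and floret markers, 13 were matched by name. Limma called 7 of them lower in osmads1 at 2 mm, beside 12.1% of all genes. At 5-7 mm 8 of them were called lower and 3 higher, beside 19.4% and 13.3% of all genes. The log2 of their summed level was 12.93 to 13.12 in osmads1 against 13.46 to 13.56 for wild type at 2 mm, and 13.69 to 13.79 against 14.21 to 14.31 at 5-7 mm. OsMADS1 itself is among the 13, so its low readings in osmads1 enter these counts and sums at both lengths. Its part in them was not taken out. The median of an array lay between 4.10 and 4.13 for the short panicles and between 4.93 and 5.00 for the long ones, and log2 levels therefore cannot be compared across lengths. For comparing lengths, each level was therefore also given as its percentile among the 57194 probe sets of the same array.

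Of the 98 members, 38 carried 1 gene in the platform annotation, 2 carried several and 58 carried none. The share with 1 gene, 38.8%, lay close to the 39.2% of all probe sets. The 38 probe sets stand for 36 genes, 8 with an informative name and 28 with only a locus number. The unannotated members fall into 24 with IDs that begin with Os and 34 with IDs that begin with OsAffx. Probe sets with the suffix _s_at, which Affymetrix gives to sets whose probes match several transcripts, made up 17.3% of members and 4.92% of all probe sets. Levels of those 17 members may therefore hold signal from related transcripts.

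Differences among members ran from -4.00 to -0.80 at 2 mm and from 0.81 to 4.61 at 5-7 mm, on the log2 scale. Their medians were -0.92 and 1.36, beside medians of -0.01 at both lengths over all probe sets. The difference was larger in size at 5-7 mm for 72 of the 98. Among unannotated OsAffx members it was larger at 5-7 mm for 32 of 34, with medians of -0.88 and 2.06. For members with 1 gene the medians were -0.93 and 1.09, and 24 of 38 had the larger difference at 5-7 mm. Both differences reached 2-fold for 29 members, 12 of them with 1 gene.

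**Figure D1:**
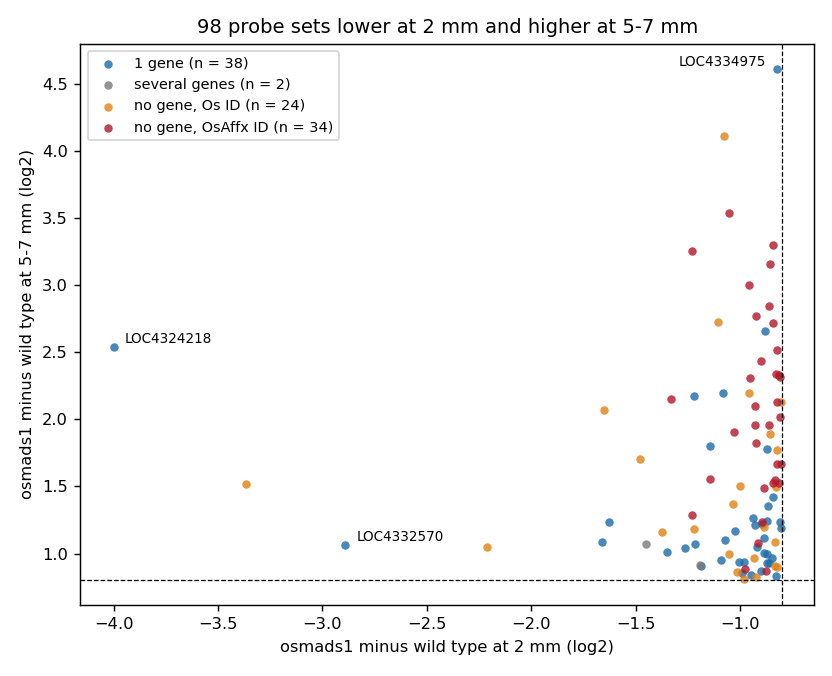
Difference between osmads1 and wild type at 2 mm (horizontal axis, log2) and at 5-7 mm (vertical axis, log2) for the 98 probe sets, coloured by annotation. Dashed lines mark the thresholds of -0.8 and 0.8. Most points crowd against the 2 mm threshold and spread upward, and a few lie far to the left or top, LOC4324218, LOC4332570 and LOC4334975 among them.

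Several members lay close to the thresholds. Nearest inside at 2 mm were LOC4350011 at -0.8028 and the unannotated OsAffx.32320.1.S1_at at -0.8034, and nearest outside were LOC4335955 at -0.7985 and LOC4332737 at -0.7948. At 5-7 mm the nearest inside were Os.11469.1.S1_at at 0.8079 and Os.8101.1.S1_at at 0.824. The nearest outside there were FAS2 at 0.7969 and LOC4325699 at 0.7952. FAS2, known from Arabidopsis as a subunit of the chromatin assembly factor that places histones on newly copied DNA, thus differed by -1.03 at 2 mm and missed the rule narrowly at 5-7 mm.

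A pair of the named members act in starting DNA replication. OsMCM2, a subunit of the replicative helicase (gene on chromosome 11), read 10.16, 9.87 and 9.93 in osmads1 and 10.75, 10.90 and 10.85 in wild type at 2 mm. In the longer panicles it read 11.90, 11.94 and 11.94 in osmads1 and 10.91, 11.11 and 10.87 in wild type. OsMCM2 was 1.80-fold lower and then 1.95-fold higher in osmads1, with the arrays separated as the rule requires. It stayed among the brightest probe sets, between percentiles 96.6 and 99.2. OsORC3, a subunit of the origin recognition complex (chromosome 10), read 5.44, 5.15 and 5.51 in osmads1 and 6.14, 6.46 and 6.09 in wild type at 2 mm. At 5-7 mm OsORC3 read 7.78, 7.85 and 8.05 in osmads1 and 6.68, 6.63 and 6.31 in wild type. It was thus a dimmer gene with a 1.82-fold lower and then a 2.55-fold higher level in osmads1.

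Genes of chromatin and DNA methylation formed the next group. OsMET1-2 (chromosome 7), a maintenance methyltransferase of CG sites, read 8.96, 8.59 and 8.75 in osmads1 and 9.77, 9.79 and 9.58 in wild type at 2 mm. At 5-7 mm it read 11.04, 11.15 and 11.18 in osmads1 against 10.35, 10.38 and 10.13 in wild type. This gene was 1.93-fold lower at the shorter length and 1.79-fold higher at the longer one. OsCMT3a (chromosome 10), a chromomethylase that acts at non-CG sites, read 8.77, 8.38 and 8.58 in osmads1 and 9.40, 9.36 and 9.45 in wild type at 2 mm. At 5-7 mm OsCMT3a read 10.46, 10.59 and 10.61 in osmads1 and 9.74, 9.74 and 9.68 in wild type, so that it was 1.77-fold lower and then 1.78-fold higher. HATB (chromosome 9), a name used for a B-type histone acetyltransferase, which acetylates newly made histones, read 7.72, 7.34 and 7.58 in osmads1 against 8.28, 8.48 and 8.49 in wild type at 2 mm. At 5-7 mm HATB read 9.73, 9.81 and 9.83 in osmads1 against 8.45, 8.70 and 8.50 in wild type. Its level was 1.83-fold lower at 2 mm and 2.36-fold higher at 5-7 mm in osmads1.

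The other 3 named genes act in hormone response, protein folding and sugar transport. IAA2 (chromosome 1), one of the Aux/IAA repressors that auxin causes to be degraded, read 8.33, 7.84 and 8.18 in osmads1 and 8.99, 9.08 and 8.89 in wild type at 2 mm. For the 5-7 mm panicles the readings were 10.28, 10.45 and 10.39 in osmads1 and 9.61, 9.33 and 9.19 in wild type, 1.83-fold lower and 2.00-fold higher. The widest gap between arrays of one group here was between the first and second osmads1 replicates at 2 mm, and the second was the lowest. OsSWEET15 (chromosome 2), a sugar exporter of the SWEET family, read 6.08, 6.52 and 6.33 in osmads1 and 7.28, 7.09 and 7.20 in wild type at 2 mm. At 5-7 mm OsSWEET15 read 6.63, 7.33 and 6.83 in osmads1 and 4.28, 4.43 and 4.11 in wild type. Its 5-7 mm difference, 6.31-fold, was far larger than the 1.84-fold difference at 2 mm. OsHsp18.6 (chromosome 2), a small heat shock protein that holds unfolded proteins in solution, had 2 member probe sets. The first read 7.77, 7.89 and 7.80 in osmads1 and 9.10, 8.74 and 8.88 in wild type at 2 mm, and 7.83, 7.73 and 7.95 against 6.76, 7.11 and 6.78 at 5-7 mm. It was thus 2.13-fold lower and 1.94-fold higher in osmads1, and the second, an _s_at probe set, differed by -1.003 and 0.93 on the log2 scale. Another OsHsp18.6 probe set was dim and showed no such difference (-0.08 and 0.06).

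**Figure D2:**
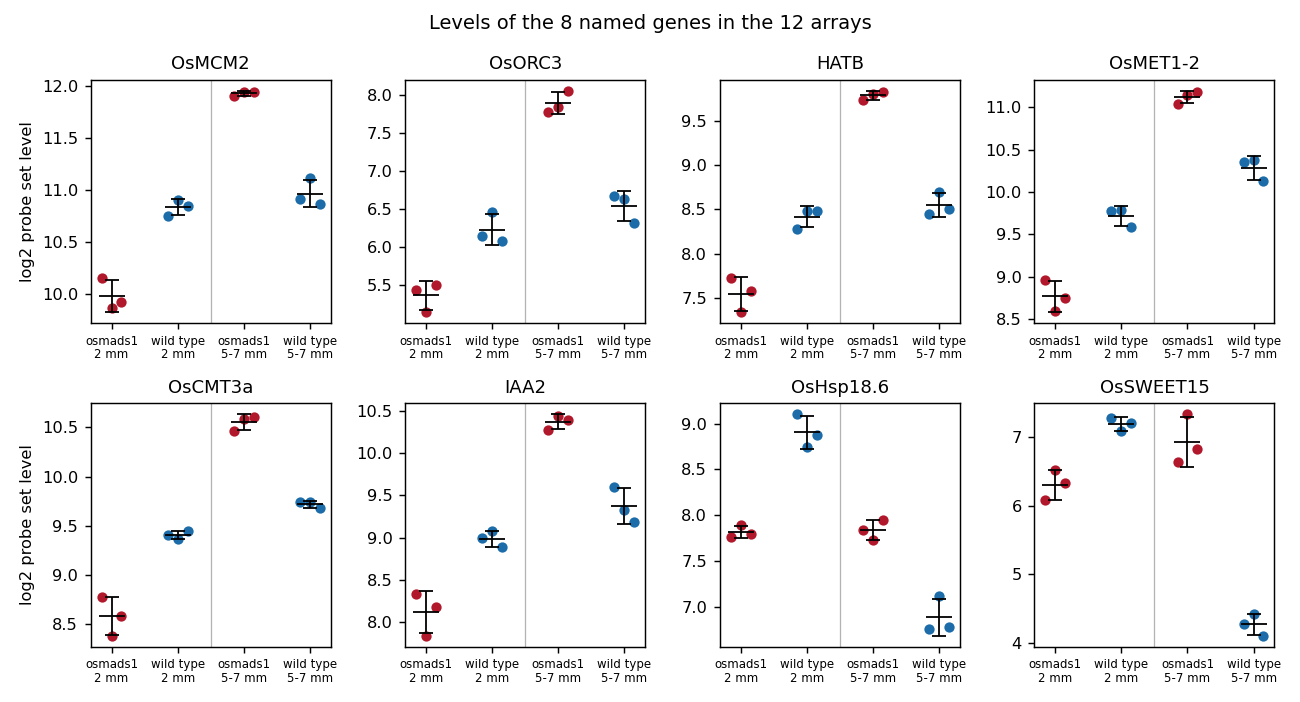
Log2 probe set level (vertical axis) of the 8 named genes in the 12 arrays. Points are arrays, black bars the mean and SD of 3 arrays, red osmads1 and blue wild type. In each panel the red points lie below the blue points at 2 mm and above them at 5-7 mm, as the rule requires. Levels should be compared within a length.

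Among members without an informative name, the rule for named genes took the 6 with the largest smaller difference. LOC4324218 (chromosome 1) led them, reading 3.11, 3.35 and 3.35 in osmads1 and 7.44, 7.02 and 7.35 in wild type at 2 mm. At 5-7 mm it read 7.03, 6.64 and 6.88 in osmads1 against 4.28, 4.51 and 4.15 in wild type. LOC4324218 was thus near the bottom of the scale in osmads1 at 2 mm. Its mean of 3.27 there lay below the upper quartile of the reporter controls of that length (3.28), and the 16-fold difference may be a lower limit. The unannotated Os.12946.1.S1_at read 3.54, 3.60 and 3.43 in osmads1 and 6.67, 6.90 and 7.10 in wild type at 2 mm. At the longer length it read 8.05, 7.93 and 7.96 in osmads1 and 6.31, 6.47 and 6.60 in wild type. Its osmads1 mean at 2 mm, 3.52, lay a little above that quartile, and its difference at 5-7 mm was smaller, at 2.87-fold. The other 4 were Os.6758.1.S1_at with -1.65 and 2.07, Os.55410.1.S1_at with -1.48 and 1.71, OsAffx.30751.2.S1_at with -1.33 and 2.15, and LOC4327761 (chromosome 1) with -1.63 and 1.24 at 2 mm and 5-7 mm. The reporter upper quartile was 3.92 at 5-7 mm. In all, 16 members had a group mean at or below the quartile of its length, 15 of them in wild type at 5-7 mm, and 82 had none.

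The 4 highest members in mean level among those without an informative name were Os.46208.1.S1_s_at, LOC4325052 (chromosome 1), LOC4331234 (chromosome 2) and Os.6105.1.S1_at. Their differences at 2 mm lay between -0.99 for LOC4325052 and -0.82 for Os.46208.1.S1_s_at. At 5-7 mm they were 0.85 for LOC4325052, 0.96 for Os.6105.1.S1_at, 1.11 for LOC4331234 and 1.77 for Os.46208.1.S1_s_at. The last of these varied most in wild type at 5-7 mm, where it read 9.75, 8.85 and 8.23.

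Another 3 members were singled out after their values had been seen, for their extreme differences. LOC4334975 (chromosome 4) had the largest 5-7 mm difference, reading 8.45, 8.37 and 8.65 in osmads1 against 3.73, 4.23 and 3.68 in wild type. The wild-type mean of 3.88 lay below the reporter upper quartile of that length, so the 24.4-fold difference may be a lower limit. At 2 mm it read 4.68, 4.37 and 4.75 against 5.54, 5.64 and 5.10, a far smaller separation. A second probe set of LOC4334975 differed by -0.79 and 4.72 and missed the rule at 2 mm by little. The unannotated Os.51813.1.S1_at differed by -1.07 at 2 mm and by 4.11 at 5-7 mm, where it was 17.3-fold higher. LOC4332570 (chromosome 3) showed the opposite balance, with -2.89 at 2 mm and 1.06 at 5-7 mm. It read 6.77, 6.88 and 6.95 in osmads1 and 9.75, 9.82 and 9.69 in wild type at 2 mm.

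Percentiles within arrays showed different courses behind the common rule. Over the 98 members the median percentile was 78.4 in wild type and 70.4 in osmads1 at 2 mm, and 58.1 in wild type and 75.8 in osmads1 at 5-7 mm. The wild-type percentile was lower at 5-7 mm than at 2 mm for 96 members, and the osmads1 percentile was higher for 75. Wild type at 5-7 mm was the lowest of the 4 groups for 69 members, and osmads1 at 2 mm was the lowest for the other 29. The rule puts osmads1 below wild type at 2 mm and above it at 5-7 mm. It therefore favours these counts, which are a description only. The classes divided unevenly: osmads1 at 2 mm was the lowest group for 21 of the 38 members with 1 gene and for 2 of the 34 unannotated OsAffx members.

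For 47 members the wild-type percentile was lower at 5-7 mm by 20 points or more, and 24 of these were unannotated OsAffx members. It was lower by 5 to 20 points for 35 and changed by less than 5 points for 16. OsMCM2, OsORC3, HATB, OsMET1-2, OsCMT3a and IAA2 belonged to the last set: their wild-type percentiles moved by 0.189 to 4.13 points while their osmads1 percentiles were 2.59 to 14.9 points higher at 5-7 mm. OsSWEET15 and OsHsp18.6 followed the other course. OsSWEET15 went from percentile 78.7 to 38.1 in wild type and from 72.1 to 71.5 in osmads1. The first OsHsp18.6 probe set went from 91.5 to 70.9 in wild type and from 83.7 to 78.7 in osmads1.

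**Figure D3:**
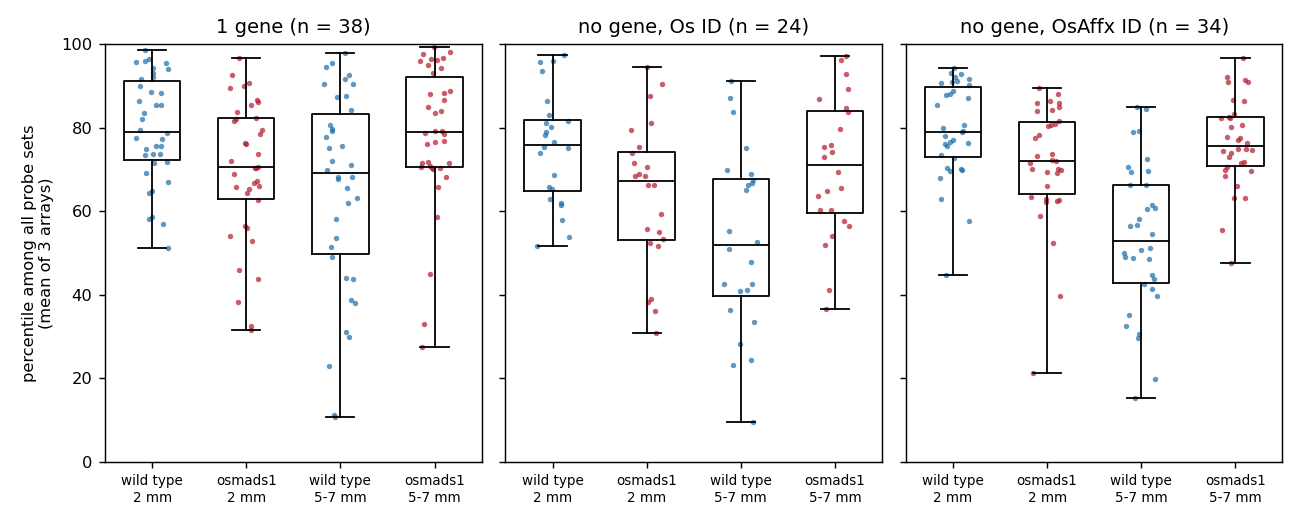
Percentile of each member among the 57194 probe sets of an array (vertical axis, mean of 3 arrays) in the 4 groups, by annotation class. Points are probe sets, boxes quartiles with the median, and whiskers reach the lowest and highest value. The unannotated classes are lowest in wild type at 5-7 mm (medians 51.8 and 52.8), where members with 1 gene have a median of 69.0.

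The DNA replication genes around OsMCM2 and OsORC3 were followed in a list of 32 measured genes, 1 probe set each, of origin licensing and of the replication fork. This list was drawn up knowing that some of its genes moved, so its direction is not independent evidence. Of the 30 genes that are not members, 22 were lower in osmads1 at 2 mm by limma's test with an adjusted p under 0.05 and 0 were higher, or 1 at an unadjusted p under 0.05. At 5-7 mm 19 of the 30 were higher and 1, OsRPA32-3, was lower. Both changes passed for 18 of the 30. Over all 17905 genes, 12.1% were lower and 10.2% higher at 2 mm, 13.3% were higher and 19.4% lower at 5-7 mm, and 3.57% were lower and then higher. Over all probe sets, 6.28% were lower and 5.5% higher at 2 mm, and 10.2% were higher and 11.3% lower at 5-7 mm. The median differences of the 30 genes were -0.46 and 0.50, beside -0.02 and -0.02 over all genes.

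Among helicase subunits, OsMCM7 read 8.29, 7.95 and 8.08 in osmads1 and 8.77, 8.97 and 8.81 in wild type at 2 mm, and 10.82, 10.84 and 10.89 against 9.41, 9.67 and 9.34 at 5-7 mm. The arrays did not overlap at either length. The difference was -0.75 ± 0.10 (SE, limma adjusted p = 0.000382) at 2 mm and 1.38 ± 0.10 (limma adjusted p = 9.05e-07) at 5-7 mm. OsMCM4, OsMCM5 and OsMCM6 fell by 0.72, 0.75 and 0.73 on the log2 scale at 2 mm (limma adjusted p = 0.000235, 0.00204 and 0.000624). They rose by 1.17, 1.22 and 1.19 at 5-7 mm (limma adjusted p = 1.58e-06, 2.04e-05 and 4.43e-06). These 4 genes, like OsMCM3 (-0.77 and 1.01, singled out after its values were seen), missed the rule by the 2 mm threshold alone. OsMCM8 and OsMCM9, relatives that act in recombination in other eukaryotes, did not pass at 2 mm, with differences of 0.09 (limma adjusted p = 0.78) and 0.16 (limma adjusted p = 0.265).

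Genes of the fork, also chosen after their values were seen, gave further examples. OspolD1, the catalytic subunit of DNA polymerase delta, fell by 1.02 at 2 mm (limma adjusted p = 5.17e-06) and rose by 0.72 at 5-7 mm (limma adjusted p = 5.25e-05), so that it missed the rule at 5-7 mm. OsPCNA, the sliding clamp, differed by -0.48 and 1.002 (limma adjusted p = 0.00851 and 1.51e-05), and OsRPA32, a subunit of the single-strand binding protein, by -0.56 and 1.34 (limma adjusted p = 0.00307 and 1.12e-06). OsRPA32-3, a paralog of the last gene, did not pass at 2 mm and fell by 0.50 at 5-7 mm (limma adjusted p = 0.000248). The paralogs of another subunit differed too: OsRPA70b passed with -0.38 and 1.21 (limma adjusted p = 0.0146 and 8.05e-07), and OsRPA70a did not pass with 0.21 and 0.16 (limma adjusted p = 0.0531 and 0.0936). The SE of a difference was 0.064 to 0.14 for the genes of the lists with printed tests, except 0.26 for OsHsp17.4, 0.56 for AMY1.3 and 0.58 for OsTPP7.

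**Figure D4:**
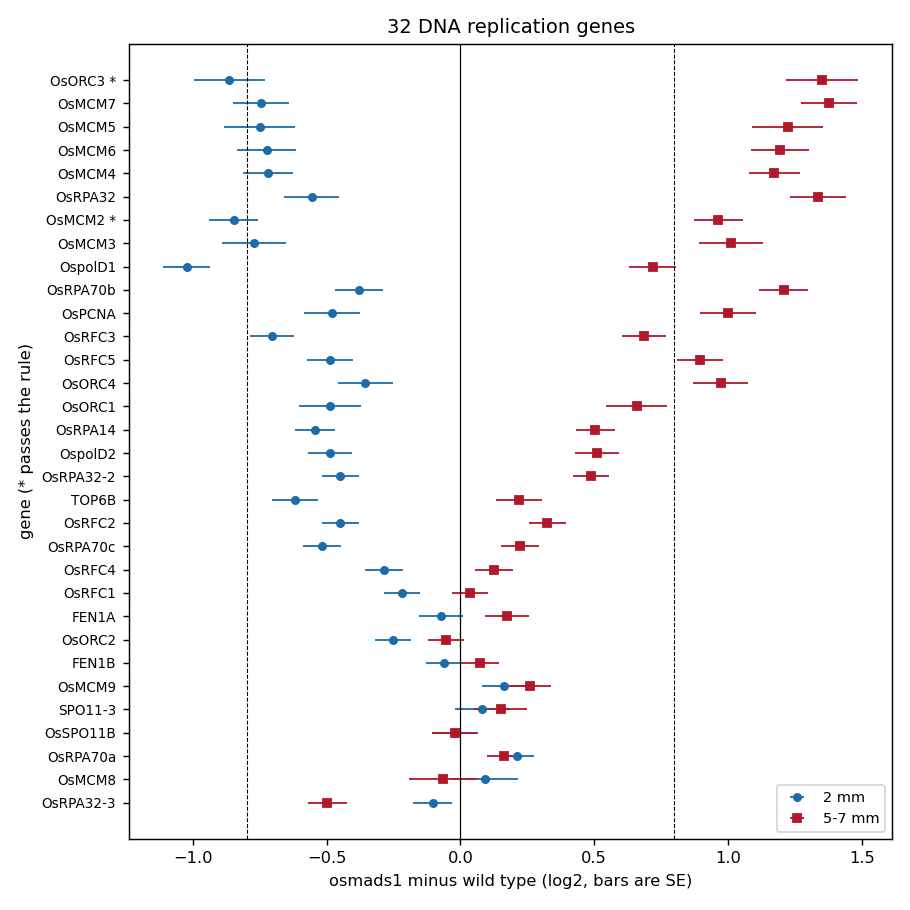
Difference between osmads1 and wild type (horizontal axis, log2, bars are SE from limma) at 2 mm (circles) and 5-7 mm (squares) for 32 DNA replication genes, ordered by the change of the difference between lengths. Stars mark OsMCM2 and OsORC3, and dashed lines the thresholds of -0.8 and 0.8. Most circles lie left of 0 and most squares right of it, while OsRPA32-3 at the bottom is left of 0 at 5-7 mm.

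Genes that share a list with the other named members were called in both directions. Over all genes, 12.1% were lower and 10.2% higher at 2 mm, and 13.3% were higher and 19.4% lower at 5-7 mm. Of all genes, 3.57% were lower and then higher. Of 25 measured genes of chromatin and small RNA pathways besides OsMET1-2 and OsCMT3a, 7 were lower and 1 was higher at 2 mm, and 3 were higher and 7 lower at 5-7 mm. OsMET1-1, the paralog of OsMET1-2, fell by 0.81 at 2 mm (limma adjusted p = 7.73e-05) and differed by 0.26 at 5-7 mm (limma adjusted p = 0.0637), where it passed after quantile normalization (0.30, limma adjusted p = 0.0341) or with dim probe sets left out (0.26, limma adjusted p = 0.0349). The 3 genes that passed in both directions were OsRDR2, an RNA-dependent RNA polymerase (-0.53 and 0.29, limma adjusted p = 0.000116 and 0.00527), OsSET33, of the SET domain family (-0.40 and 0.27, limma adjusted p = 0.00259 and 0.0156), and JMJ706, a histone demethylase (-0.44 and 0.31, limma adjusted p = 0.00294 and 0.0152). The 5-7 mm call of OsSET33 was lost without osmads1 replicate 2 (a difference of 0.25, limma adjusted p = 0.0534) or wild-type replicate 3 (0.23, limma adjusted p = 0.069), and with the 6 arrays of that length alone (0.27, limma adjusted p = 0.0612). That of JMJ706 was lost without the same single arrays, at 0.27 (limma adjusted p = 0.0576) and 0.28 (limma adjusted p = 0.0604).

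Of 52 auxin genes besides IAA2, 6 were lower and 6 higher at 2 mm, and 13 were higher and 9 lower at 5-7 mm. Beside them, 12.1% of all genes were lower and 10.2% higher at 2 mm, and 13.3% were higher and 19.4% lower at 5-7 mm. ARF14, an auxin response factor, fell by 0.45 at 2 mm (limma adjusted p = 0.00697) and rose by 0.68 at 5-7 mm (limma adjusted p = 0.0002). IAA7, another Aux/IAA gene, differed by -0.30 at 2 mm (limma adjusted p = 0.111) and rose by 0.89 at 5-7 mm (limma adjusted p = 6.35e-05). IAA24 went the other way, with 0.77 and -0.45 (limma adjusted p = 0.00052 and 0.0114). OsPIN3a, an auxin efflux carrier, differed by 0.23 (limma adjusted p = 0.195) and fell by 1.44 (limma adjusted p = 4.3e-07). ARF14 thus had the signs of IAA2 at both lengths, and IAA24 the opposite ones.

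Of 40 heat shock genes besides OsHsp18.6, 10 were lower and 8 higher at 2 mm, and 5 were higher and 6 lower at 5-7 mm. The shares over all genes were again 12.1% and 10.2% at 2 mm, and 13.3% and 19.4% at 5-7 mm. OsHsp17.4, another small heat shock gene, fell by 1.64 at 2 mm (limma adjusted p = 0.000872). At 5-7 mm it read 4.94, 5.22 and 6.10 in osmads1 and 4.66, 4.75 and 4.47 in wild type, a difference of 0.79 (limma adjusted p = 0.0441). The call was lost without osmads1 replicate 3, where the difference was 0.45 (limma adjusted p = 0.142). It was also lost without osmads1 replicate 2 or any of the wild-type replicates, at differences of 0.71 to 0.89 (limma adjusted p = 0.0533 to 0.128), after quantile normalization (0.80, limma adjusted p = 0.0561) and with the 6 arrays of that length alone (0.79, limma adjusted p = 0.0809). The heat stress factor genes OsHsf-05 and OsHsf-25 and the chaperone gene CLPB1 were higher at 2 mm, by 3.36, 0.92 and 1.08 (limma adjusted p = 3.62e-10, 0.000127 and 0.000232). At 5-7 mm they differed by -0.43, -0.50 and -0.49 (limma adjusted p = 0.0129, 0.00624 and 0.0261). The 5-7 mm call of OsHsf-05 was lost without wild-type replicate 2 (-0.35, limma adjusted p = 0.0622). That of CLPB1 was lost without replicate 1 or 2 of either genotype, at differences of -0.47 to -0.43 (limma adjusted p = 0.0754 to 0.0904).

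Of 40 sugar genes besides OsSWEET15, 4 were lower and 7 higher at 2 mm, and 4 were higher and 8 lower at 5-7 mm. Limma called 0 lower and then higher, or 1 at an unadjusted p under 0.05. Over all genes the shares were 12.1% and 10.2% at 2 mm, 13.3% and 19.4% at 5-7 mm, and 3.57% for lower and then higher. The trehalose phosphate phosphatase gene OsTPP3 fell by 1.20 at 2 mm (limma adjusted p = 9.71e-06) and differed by 0.29 at 5-7 mm (limma adjusted p = 0.0741, or 0.0467 with dim probe sets left out). OsTPP9, of the same family, differed by 0.03 (limma adjusted p = 0.937) and fell by 1.94 (limma adjusted p = 5.89e-08). OsTPP7 differed by -0.73 (limma adjusted p = 0.547), or by -1.59 without wild-type replicate 1 (limma adjusted p = 0.0187), and fell by 2.56 at 5-7 mm (limma adjusted p = 0.00626). The amylase gene AMY1.3 differed by 0.81 (limma adjusted p = 0.475) and fell by 3.60 at 5-7 mm (limma adjusted p = 0.000448). The wild-type arrays of AMY1.3 were widely spread there, at 8.09, 5.41 and 7.01.

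Of the 34 unannotated OsAffx members, 10 came from one run of ID numbers. After the values had been seen, runs of unannotated ID numbers were sought in which the median difference of each number was below 0 at 2 mm and above 0 at 5-7 mm. The longest run held 139 such numbers, from OsAffx.32189 to OsAffx.32350, with 256 probe sets, and the next longest held 7. Numbers in that span without an unannotated probe set were skipped. The signs of the longest run follow from how it was found. The differences were -1.05 to -0.10 at 2 mm, with a median of -0.52, and had a median of 2.02 at 5-7 mm, where 1 of them was below 0. The arrays did not overlap and were lower at 2 mm for 240 of them, beside 16.1% of all probe sets, and higher at 5-7 mm for 251, beside 16.7%. The search for these signs favoured both counts, so they are no separate evidence. At 5-7 mm 243 of them reached 0.8, and at 2 mm 10 reached -0.8, so the 2 mm threshold set which of them entered.

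In the run, wild type at 5-7 mm stood apart from the other groups. The median level of the 256 probe sets was 7.63 to 7.69 over the osmads1 arrays and 8.16 to 8.30 over the wild-type arrays at 2 mm. At 5-7 mm it was 8.08 to 8.36 over the osmads1 arrays and 5.33 to 6.31 over the wild-type arrays, and wild type at 5-7 mm had the lowest percentile for 255 of the 256. The tables used name no gene for these IDs, and probe sets with neighbouring numbers may share sequence, so that they are not separate observations. Of annotated probe sets, that of the mitochondrial gene cob, for cytochrome b, differed by -0.67 and 2.90, and that of the plastid gene atpI, for a subunit of ATP synthase, by -0.09 and 0.29. Neither is a member.

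**Figure D5:**
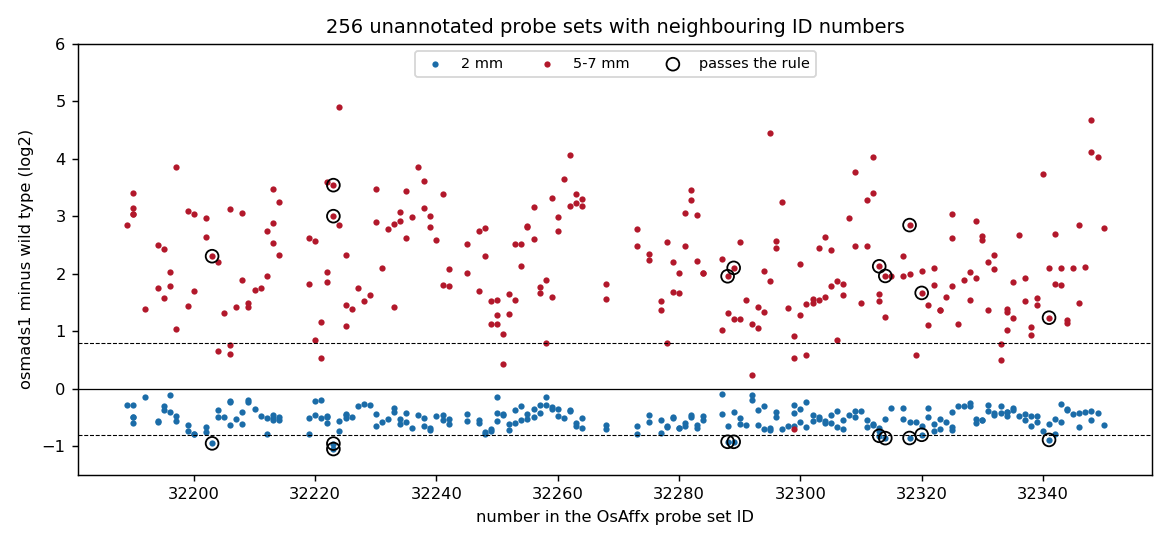
Difference between osmads1 and wild type (vertical axis, log2) at 2 mm (blue) and 5-7 mm (red) for 256 unannotated probe sets, by the number in the OsAffx ID (horizontal axis). Circles mark the 10 members and dashed lines the thresholds of -0.8 and 0.8. Blue points all lie below 0, and red points lie above 0 with 1 exception.

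Several members share an ID number, 3 of the 4 probe sets of OsAffx.24407, 2 of the 5 of OsAffx.30475 and 2 of the 9 of OsAffx.26050 among them. Of 9 further probe sets of 6 member genes, 6 were below 0 at 2 mm and above 0 at 5-7 mm, beside 29.3% of all probe sets. Some were brighter than the member probe set of their gene and lacked its difference at 5-7 mm, with a smaller one or none at 2 mm. That of LOC9267065 differed by 0.03 and -0.15, and that of LOC4334099 by -0.31 and -0.09. Those of LOC4340017 differed by -0.54 and 0.13, and by -0.53 and 0.02. Of these 9, 5 were lower without overlap at 2 mm, beside 16.1% of all probe sets, and 2 were higher without overlap at 5-7 mm, beside 16.7%. They measure the same genes as members, so they are not separate evidence. Member genes lay on all 12 nuclear chromosomes of the reference gene table (assembly ASM3414082v1), 7 of them on chromosome 1 and 5 on chromosome 11. The closest pair, LOC4347708 and LOC4347727 on chromosome 9, had 24 genes between them.

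Arrays and control readings also moved with the groups. Among the 3 osmads1 arrays at 2 mm, replicate 2 was the lowest for 49 of the 98 members, replicate 1 for 37 and replicate 3 for 12. Without that replicate 2, OsMCM2 (-0.79), HATB (-0.77), OsORC3 (-0.76), IAA2 (-0.73) and OsCMT3a (-0.73) missed the 2 mm threshold. OsORC3 also missed it without wild-type replicate 2 at 2 mm (-0.75). Without osmads1 replicate 1, OsSWEET15 missed it (-0.77), and without wild-type replicate 3 at 5-7 mm OsMET1-2 missed the other (0.76). OsHsp18.6 and LOC4324218 stayed members whichever array was left out, as did 48 of the 98 in all.

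The reading of the GAPDH control at its 3' end minus that at its 5' end was 2.58 ± 0.059 at 2 mm in osmads1, against 3.58 ± 0.042 in wild type (SD, n = 3). It was 2.24 ± 0.44 and 2.10 ± 0.16 at 5-7 mm. The 5 rRNA controls differed by -0.62 to 0.12 at 2 mm and by -0.31 to 0.16 at 5-7 mm. The 36 dap, lys, phe and thr controls, of bacterial transcripts, differed by -0.23 to 0.11 at 2 mm and by -1.51 to -0.11 at 5-7 mm. The log2 of the summed level of 6 tapetum and pollen wall markers was 8.78 to 9.45 in osmads1 and 6.19 to 6.38 in wild type at 2 mm, with 5 of 6 called higher. In the longer panicles it was 6.46 to 6.73 and 6.61 to 6.72, where limma called 0 of 6, and also 0 at an unadjusted p under 0.05. That of 8 green tissue markers was 9.997 to 10.28 against 9.12 to 9.40 at 2 mm, with 4 called higher. In the longer panicles it was 9.89 to 10.65 against 9.51 to 9.74, with 3 called higher and 1 lower. Over all genes limma called 10.2% higher at 2 mm, and 13.3% higher and 19.4% lower at 5-7 mm. No marker gene is a member, and the part of these readings in the members' differences was not tested.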

How the data were processed

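Total RNA of 12 panicle samples was labelled by an in vitro transcription kit that reads mainly 3' ends, per the labels' protocols. The authors deposited log2 probe set levels, and the submitters' processing notes name Partek and RMA, which subtracts background, normalizes arrays by quantiles and summarises probes. Versions and settings are not given in the sources used here. Array medians are nearly equal within a length and differ between lengths. RMA gives no detection call, and differences of dim probe sets may be understated, which was not tested. Replicate arrays correlated at 0.9954 to 0.9977.

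The 187 control probe sets were left out. The platform annotation gave 1 gene for 22436 probe sets (17905 genes), all named through the RefSeq gene table. For each gene the probe set with the highest overall mean was used. Genes that are not members were tested in R 4.3.3 by limma 3.58.1, fitting the 4 group means jointly to all 12 arrays, and adjusted p-values are two-sided, by Benjamini-Hochberg over 57194 probe sets. The fit was first tested on simulated data. Figures used matplotlib 3.10.9.

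The members and lists were chosen with earlier results of these data known. Of 40 lists of gene names, the 5 that hold a member are described, licensing together with fork genes. Named genes follow a rule: every member with an informative name, the 6 other members with the largest smaller difference, the 4 brightest and those nearest each threshold. Up to 4 other genes of each such list were added, by the largest absolute change of the difference between lengths. The rest were chosen after their values were seen, as stated. Alternatives were quantile normalization or centring of all arrays, a filter on dim probe sets, a replicate block, a trended prior, each length's own arrays, other thresholds, 1 probe set per gene and leaving out each array.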

Additional observations from a re-analysis of the deposited data

Results flagged for a closer look

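For 19 of the named genes that are not members, the difference between osmads1 and wild type itself changed between the lengths by limma's interaction test, adjusted over 57194 probe sets. Beside them, 11.3% of all probe sets passed with a change above 0 and 11% with a change below 0. Those shares are over probe sets, and the shares over genes were not taken. For calls lower at 2 mm the share was 6.28% over probe sets and 12.1% over genes, so the shares over genes may be higher here too. The change is the 5-7 mm difference minus the 2 mm difference on the log2 scale, and the lists and genes were picked with results known. Up to 4 genes of a list were picked for the largest absolute change. That choice favoured passing this test, so the calls are no separate evidence. OsTPP7, picked in the same way, is not among the 19.

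The helicase genes had changes of 2.12 for OsMCM7, 1.89 for OsMCM4, 1.97 for OsMCM5 and 1.92 for OsMCM6, with limma adjusted p-values of 4.01e-07, 4.64e-07, 6.24e-06 and 1.38e-06. Among genes of chromatin and small RNA pathways it was 1.07 for OsMET1-1, 0.82 for OsRDR2, 0.67 for OsSET33 and 0.75 for JMJ706, with limma adjusted p-values of 5.85e-05, 2.34e-05, 0.000335 and 0.000359.

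Auxin genes divided, with 1.13 for ARF14 and 1.19 for IAA7 but -1.68 for OsPIN3a and -1.22 for IAA24 (limma adjusted p = 4.65e-05, 9.61e-05, 2.46e-06 and 9.44e-05). Of the heat shock genes, OsHsp17.4 had a change of 2.42, and OsHsf-05, OsHsf-25 and CLPB1 had changes of -3.79, -1.42 and -1.57 (limma adjusted p = 0.000288, 3.37e-09, 2.7e-05 and 8.14e-05). Of the sugar genes, OsTPP3 had a change of 1.49, OsTPP9 of -1.96 and AMY1.3 of -4.41 (limma adjusted p = 1.29e-05, 1.19e-06 and 0.00125).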

How the results depend on the processing

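The number of members followed the threshold: 373 at 0.6 and 29 at 1.0. With 1 probe set per gene 32 remained, beside 36 member genes. That setting keeps only probe sets with 1 gene, and of these the brightest of each gene, so it drops every unannotated member. The number over all probe sets was 90 after quantile normalization of all arrays (81 shared) and 98 after centring (93 shared), and OsCMT3a left after the former. Without single arrays it was 89 to 118. At an adjusted p under 0.01 the limma calls were 1988 lower at 2 mm, 3590 higher at 5-7 mm and 4089 interactions above 0, against 3593, 5831 and 6487. Without single arrays these calls were 2515 to 3711, 4641 to 5876 and 5618 to 6318, and replication genes numbered 18 to 24 of 32 lower at 2 mm and 19 to 21 higher at 5-7 mm. Deviations from the group mean correlated at -0.0684 to 0.0844 between same-numbered osmads1 and wild-type arrays, above 0 for each number at 2 mm. Between arrays of different numbers the correlations were -0.1041 to 0.1278. These values cannot settle whether the numbers pair the arrays. With the replicate block 19 replication genes were lower at 2 mm and 19 higher at 5-7 mm, and all calls were 2955, 5158 and 5740. At 5-7 mm the block ended the calls of OsHsp17.4, CLPB1 and OsSET33 (limma adjusted p = 0.0806, 0.0778 and 0.0513) and made those of OsMET1-1 and OsTPP3 (limma adjusted p = 0.0413 and 0.0449). Of 744 other values of single genes, 716 kept their call or moved by less than the spread. OsTPP9 at 2 mm lay between -0.10 and 0.12 without single arrays, below 0 without osmads1 replicate 2 (-0.10) or wild-type replicate 1 (-0.05), and the cause was not tested. The planned motif search in promoters was not run, as no promoter sequence was used here. With 3 arrays a group, levels near the reporter controls have no order.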
